A study of Mus musculus with 23 samples.

Results

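The 10 genes described here mark astrocytes and carry out their supporting functions: the water channel gene Aqp4, the glutamate transporter genes Slc1a2 and Slc1a3, the connexin genes Gja1 and Gjb6, the enzyme genes Aldoc and Aldh1l1, and S100b, Agt and Fabp7. They were named as a list, and each was read from the probe set that carries its symbol alone. All 10 were measured, of 22180 genes with such a probe set, and each had 1 probe set. RNA from micropunches of the nucleus accumbens, the ventral striatum, was hybridised to whole-transcript microarrays, with 1 array for each of 23 C57BL/6J mice of about 15 weeks. About 5 weeks earlier the mice had received into the region an adeno-associated virus (AAV) with a short hairpin RNA against Nr1d1 or with a scrambled hairpin. Nr1d1 encodes REV-ERBα, a repressor of the circadian clock. Among females, 5 mice received the control and 6 the knockdown virus, and among males 6 received each, so every mouse, controls included, had been injected with AAV. The sources used here give neither the promoter that drives the hairpin, nor the cell types it reaches, nor the hour of collection. The label text on treatment names postpartum day 7 for females and males alike, and so does not settle whether the females were mothers.

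Astrocytes clear glutamate from synapses through the transporters of Slc1a2 (GLT-1) and Slc1a3 (GLAST), share ions and metabolites through gap junctions built of the connexins of Gja1 and Gjb6, and move water through aquaporin-4 at endfeet on blood vessels. Aldoc encodes the brain form of the glycolytic enzyme aldolase, and Aldh1l1 an enzyme of folate metabolism. S100b encodes a calcium-binding protein, Agt the precursor of the angiotensins, and Fabp7 a fatty acid carrier of the brain that has been described as a target of REV-ERBα repression. In the brain Agt is made mainly by astrocytes.

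Values are the deposited log2 intensities. The medians over all probe sets were 6.11 to 6.17 on the 11 female arrays and 5.84 to 5.88 on the 12 male arrays, so these array sets look normalized separately. Sex and array set cannot be told apart, and levels were not compared between them. Nr1d1, the target, had a log2 level of 10.04 ± 0.07 (SD, n = 5) in female controls and 9.99 ± 0.16 (SD, n = 6) in knockdown females. In males it was 9.59 ± 0.20 in controls and 9.58 ± 0.13 in knockdown mice (SD, n = 6 each). No reduction was detectable at this probe set, and where the hairpin binds relative to it is not stated in the sources used here, so the groups below are the arrays labelled knockdown. Sex markers matched the labelled sex in all 23 arrays. Slc17a7, which encodes the vesicular glutamate transporter of cortical excitatory neurons and is scarce in striatal neurons, ranged from 8.92 to 11.13 in females and from 4.64 to 10.34 in males. It was below 7 on 4 male arrays, those of controls 3, 5 and 6 and of knockdown mouse 6.

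Promoter sequence is shown for the 5 genes on which the results turn: Agt and Slc1a2, which moved with Slc17a7, Slc1a3 and Gja1, which varied together most closely, and Fabp7, which had the largest average difference between the labelled groups. The sequences are the 250 bases before the annotated start in RefSeq's GRCm38.p6 annotation, 5′ to 3′ on the gene's strand. Capitals mark AGGTCA, the core of sites bound by ROR and REV-ERB receptors, or its reverse complement. The table used held 9 of the 10 genes, in 10 windows since Aldoc has 2 starts; Aqp4 is the one without an entry.
Agt, chr8:124569707-124569956, minus strand: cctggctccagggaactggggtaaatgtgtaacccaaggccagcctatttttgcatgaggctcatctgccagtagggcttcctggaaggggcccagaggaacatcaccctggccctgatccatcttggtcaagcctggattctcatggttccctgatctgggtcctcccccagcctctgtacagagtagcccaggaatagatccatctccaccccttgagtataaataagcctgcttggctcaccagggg
Slc1a2, chr2:102706188-102706437, plus strand: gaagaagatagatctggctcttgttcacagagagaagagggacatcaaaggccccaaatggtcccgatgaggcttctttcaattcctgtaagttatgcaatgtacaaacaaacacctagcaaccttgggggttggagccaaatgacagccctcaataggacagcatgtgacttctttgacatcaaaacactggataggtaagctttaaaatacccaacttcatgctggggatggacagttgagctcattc
Slc1a3, chr15:8710808-8711057, minus strand: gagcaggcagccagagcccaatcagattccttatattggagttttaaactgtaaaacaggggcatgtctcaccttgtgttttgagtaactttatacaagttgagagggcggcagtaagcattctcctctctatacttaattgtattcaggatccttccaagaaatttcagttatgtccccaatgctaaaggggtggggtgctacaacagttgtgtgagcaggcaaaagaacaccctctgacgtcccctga
Gja1, chr10:56377050-56377299, plus strand: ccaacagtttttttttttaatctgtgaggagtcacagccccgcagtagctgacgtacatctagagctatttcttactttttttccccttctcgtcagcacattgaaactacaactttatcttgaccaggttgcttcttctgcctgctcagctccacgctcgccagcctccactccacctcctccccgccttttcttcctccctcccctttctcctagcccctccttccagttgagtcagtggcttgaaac
Fabp7, chr10:57784673-57784922, plus strand: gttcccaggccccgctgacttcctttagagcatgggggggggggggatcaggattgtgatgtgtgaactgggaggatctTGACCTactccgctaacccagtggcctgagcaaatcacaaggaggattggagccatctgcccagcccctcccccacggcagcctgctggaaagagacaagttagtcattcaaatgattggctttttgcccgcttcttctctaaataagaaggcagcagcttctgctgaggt
AGGTCA, searched on both strands, was found in 2 of the 10 windows. In Fabp7 it lay on the strand opposite to the gene with its leftmost base 171 bases before the start, and in Aldh1l1 on the opposite strand, 178 bases before the start. The same letters were in 14% of 32851 windows of that length in the table. The E-box CACGTG was in 0 of the 10 windows and in 6.02% of all, and the SOX core CATTGT in 0 of 10 and in 10.7% of all. These are matches of letters and do not show binding.

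The genes differed widely in how much they varied between mice of one group. The within-group SD of log2 level, pooled over the 4 groups, was 0.29 for Agt, 0.19 for Gjb6 and 0.19 for Fabp7. It was 0.14 for Aqp4, 0.13 for Aldh1l1, 0.13 for Gja1 and 0.12 for S100b. The lowest values were those of the glutamate transporters, 0.079 for Slc1a2 and 0.076 for Slc1a3, and of Aldoc, 0.058. Against a median of 0.12 over all genes, 6 of the 10 were above it. Agt stood at the 98.5th percentile of all genes and Aldoc at the 2.34th. The spread of Agt was 0.18 in females and 0.37 in males, and that of Slc17a7 0.70 and 2.09.

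Aqp4, the water channel, ranged from 8.86 to 9.48 over the 11 female arrays and from 8.80 to 9.15 over the 12 male arrays. Of the glutamate transporters, Slc1a3 lay between 10.86 and 11.11 in females and between 10.59 and 10.85 in males, and Slc1a2 between 9.96 and 10.09 and between 9.61 and 9.86. In both array sets the control and knockdown ranges of these 3 genes overlapped. Of the connexins, Gja1 ranged from 10.14 to 10.47 in females and, in male controls, from 9.75 to 10.36, a range that enclosed the male knockdown range of 9.95 to 10.11. Gjb6 ranged from 6.64 to 7.03 in females and from 6.00 to 6.87 in males. Aldoc stayed between 11.83 and 12.02 in females and between 11.75 and 11.96 in males, and Aldh1l1 between 7.43 and 7.87 and between 7.24 and 7.70.

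**Figure D1:**
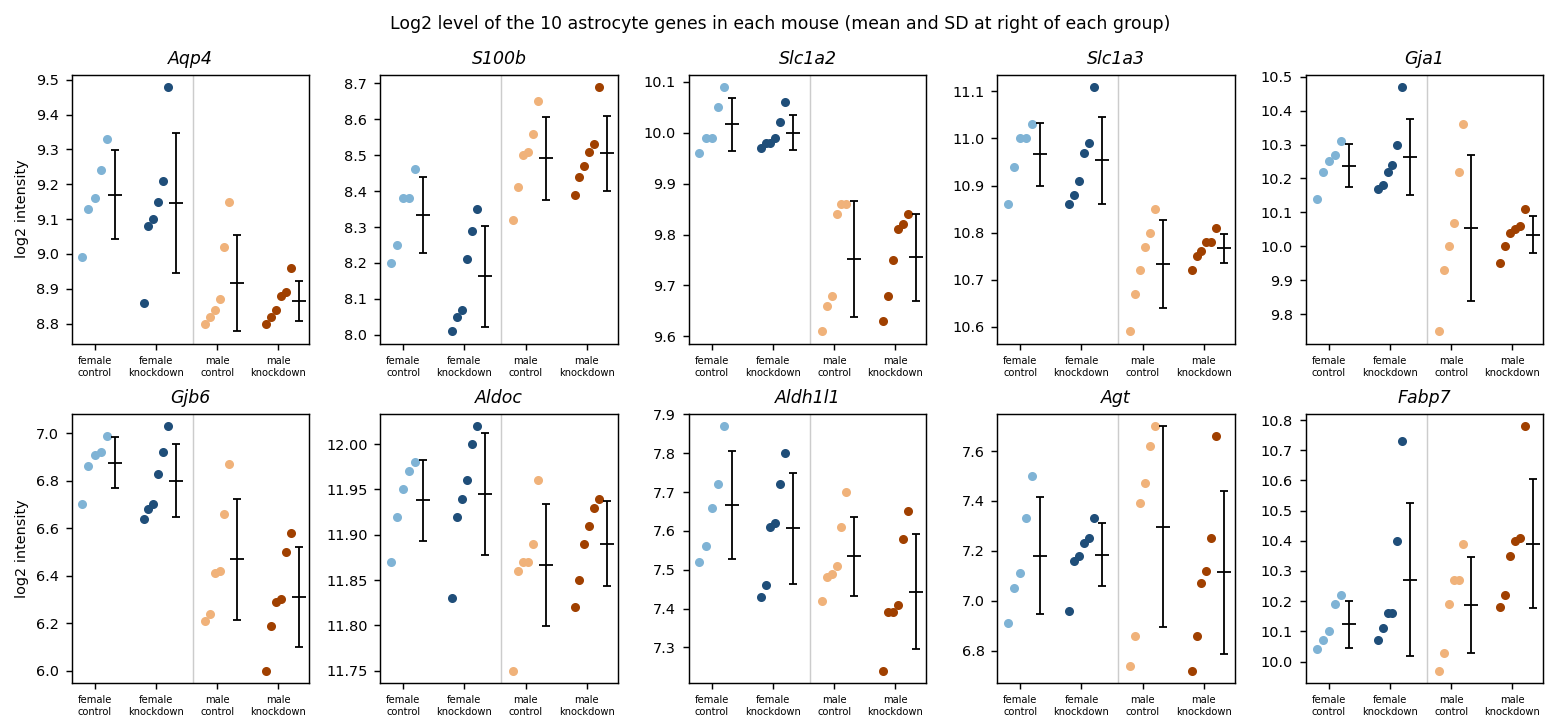
Deposited log2 intensity of each of the 10 genes (y axis, a separate scale per gene) in every mouse of the 4 groups (x axis), with the group mean and SD at the right of the points. Control and knockdown points overlap for every gene in both sexes, and Agt in male controls spans 6.74 to 7.70; female and male arrays look normalized separately and are not compared in level.

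Agt was the gene of the 10 that moved most with Slc17a7. In male controls 1 to 6, Slc17a7 was at a log2 level of 10.34, 10.18, 5.43, 8.01, 6.17 and 4.64, and Agt at 6.86, 6.74, 7.47, 7.39, 7.62 and 7.70. In male knockdown mice 1 to 6, Slc17a7 was at 8.98, 8.72, 9.97, 9.80, 8.96 and 5.37, and Agt at 7.25, 7.07, 6.72, 6.86, 7.12 and 7.66. The 4 males with Slc17a7 below 7 had the highest Agt of all male arrays, 7.47 to 7.70, and the 4 males with the most Slc17a7 had the lowest, 6.72 to 6.86. In female controls 1 to 5, Slc17a7 was at 9.40, 10.46, 11.05, 10.57 and 10.48, and Agt at 7.33, 7.05, 6.91, 7.11 and 7.50. In female knockdown mice 1 to 6, Slc17a7 was at 10.20, 8.92, 11.13, 10.25, 10.39 and 10.83, and Agt at 7.18, 7.33, 6.96, 7.23, 7.25 and 7.16. In each female group the mouse with the most Slc17a7 had the least Agt.

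The relation was measured as a slope, the change in a gene's log2 level per log2 unit of Slc17a7 between mice of a group, in a linear model with the 4 group means (limma, Benjamini-Hochberg adjustment over all 41344 probe sets other than that of Slc17a7). Of these probe sets, 3.15% passed an adjusted p of 0.05, 1.55% with a rising and 1.6% with a falling slope, and 13.9% had an unadjusted p under 0.05. Of the 10 genes, 2 passed, in opposite directions. Agt fell with Slc17a7, with a slope of -0.16 (SE 0.02, 95% confidence interval -0.21 to -0.12, limma adjusted p = 4.42e-05). Over the 5.7 log2 units that Slc17a7 spanned in males, the fitted change in Agt was -0.94 log2 units. Slc1a2 rose with Slc17a7, with a slope of 0.04 (SE 0.01, interval 0.02 to 0.06, limma adjusted p = 0.0358) and a fitted change of 0.21 over the same span. In male controls 1 to 6 Slc1a2 was at 9.86, 9.84, 9.66, 9.86, 9.68 and 9.61, and in male knockdown mice 1 to 6 at 9.75, 9.82, 9.81, 9.84, 9.68 and 9.63. The 4 males with Slc17a7 below 7 had values of 9.61 to 9.68, and knockdown mouse 5, at 9.68, was the only other male below 9.75.

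The 2 slopes were not equally firm. Agt passed in each of the 23 fits that left out 1 array, with slopes of -0.17 to -0.16 and limma adjusted p up to 0.000592. Without the 4 males below 7 its slope was -0.22 (limma adjusted p = 0.0126). Slc1a2 lost the call when any of 9 arrays was left out: female knockdown 3, male controls 1, 2, 3, 5 and 6, and male knockdown 3, 4 and 6, with limma adjusted p up to 0.127. Without the 4 males below 7 the slope of Slc1a2 was 0.0017 (limma adjusted p = 0.993), so its rise rests on those arrays.

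Over all groups, the other 8 genes had slopes below 0 that did not pass. Those of the connexins were -0.04 for Gja1 (SE 0.02, limma adjusted p = 0.252) and -0.05 for Gjb6 (SE 0.02, adjusted p = 0.368). S100b had -0.04 (SE 0.02, adjusted p = 0.178) and Aldh1l1 -0.04 (SE 0.02, adjusted p = 0.320). Fabp7 was at -0.03, Slc1a3 at -0.02, Aldoc at -0.02 and Aqp4 at -0.01, with limma adjusted p from 0.515 to 0.956. The median slope of the 10 was -0.035, beside 0.00017 over all genes, of which 49.7% were below 0. An unadjusted limma p under 0.05 was reached by 5 of the 10, Agt and Slc1a2 included, beside 13.9% of probe sets.

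**Figure D2:**
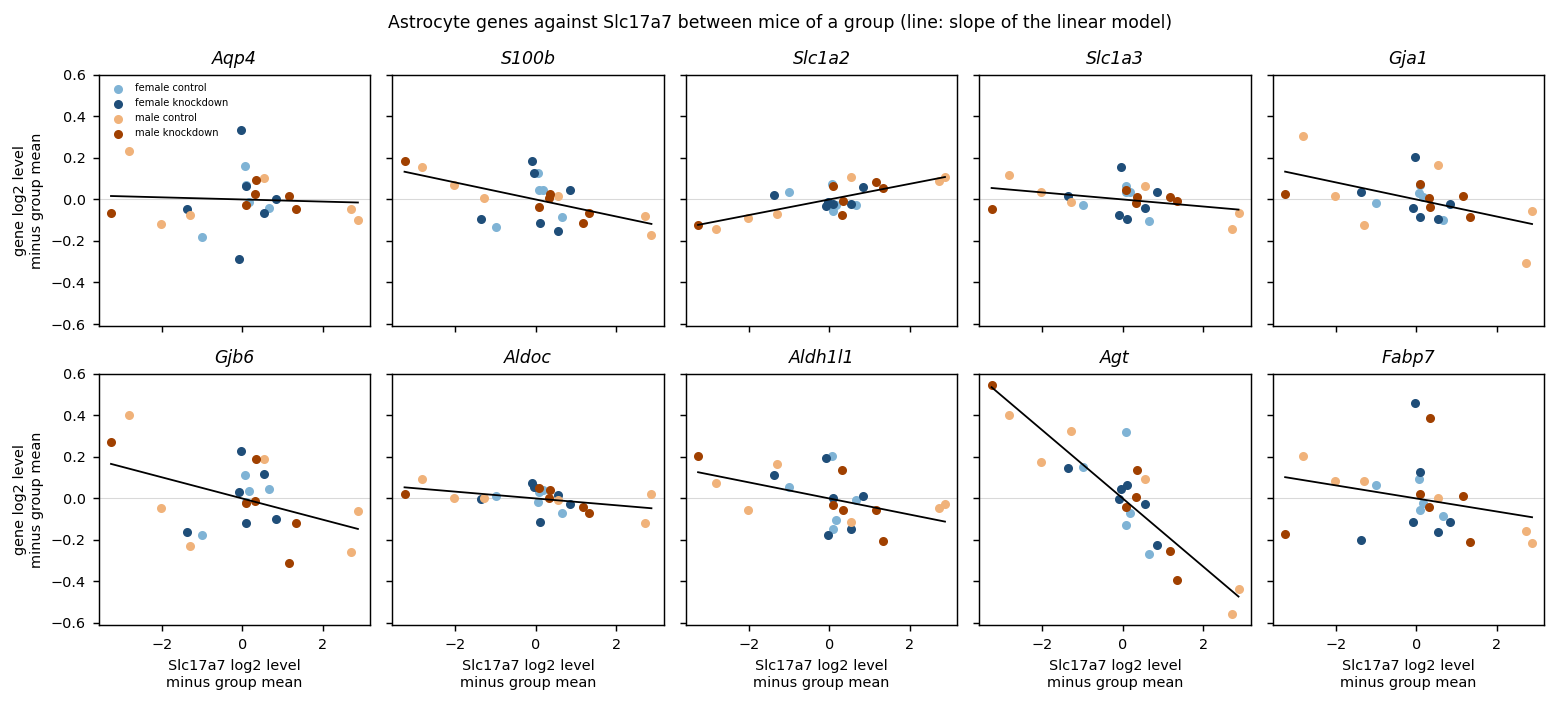
Log2 level of each gene minus its group mean (y axis) against that of Slc17a7 (x axis) in the 23 mice, coloured by group, with the slope of the linear model as a line. Agt has the steepest line, falling at -0.16 per log2 unit, Slc1a2 rises at 0.04, and the slopes of the other 8 did not pass the test.

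Fitted with 1 slope per array set, Agt had a slope of -0.16 in females (SE 0.07, interval -0.30 to -0.02, unadjusted p = 0.0231, limma adjusted p = 0.464) and of -0.16 in males (SE 0.02, limma adjusted p = 0.00015). The male minus female difference of the Agt slopes was 0.00 (SE 0.07). In females 0 of the 10 genes passed, beside 0.414% of probe sets (0.336% with a rising and 0.0774% with a falling slope). An unadjusted p under 0.05 was reached there by 1 of the 10, Agt, beside 8.32% of probe sets. In males 2 passed, Agt and Slc1a2, beside 2.64% (1.24% rising and 1.41% falling). Without the 4 males below 7, the male slope of Agt was -0.28 (limma adjusted p = 0.0617) and 0 of the 10 passed in males. The slope of Slc1a2 was -0.01 in females (SE 0.03) and 0.04 in males (SE 0.01, limma adjusted p = 0.0211). Of the 10 genes, 7 had slopes below 0 in females, with a median of -0.011, and 9 in males, with a median of -0.035. Of all genes, 47.4% were below 0 in females and 50.0% in males. Above 0 in females were Gjb6 at 0.09 (SE 0.08), Aqp4 at 0.05 (SE 0.07) and S100b at 0.03 (SE 0.05). In males these were at -0.07, -0.01 and -0.05. The difference between the sets passed for 0 of the 10 genes, beside 0.00242% of probe sets. In that difference 0 of the 10 had an unadjusted p under 0.05, beside 6.23% of probe sets. Slc17a7 spanned 2.21 log2 units in females, which leaves the female slopes wide intervals.

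Other genes of the cell types in the punch were read from lists. Of 13 listed markers of cortical excitatory neurons, 11 apart from Slc17a7 were tested and 7 rose with it, beside 1.55% of all probe sets. Among them were the transcription factor genes Neurod6, with a slope of 0.60 (SE 0.05), Neurod2, with 0.43 (SE 0.04), and Tbr1, with 0.44 (SE 0.05), and the synaptic pentraxin gene Nptx1, with 0.33 (SE 0.03). All 4 had a limma adjusted p of at most 6.74e-06. The mean log2 level of the 12 measured genes of the list, Slc17a7 included, was 7.65 to 8.74 in females and 6.56 to 8.57 in males. Of 17 measured markers of medium spiny neurons, the main neurons of the striatum, 0 passed by limma and 1, Isl1, had an unadjusted p under 0.05, with a slope of -0.08 (SE 0.03, adjusted p = 0.123), followed by Ptpn5, at -0.03 (SE 0.02). In females all 17 had slopes below 0, with a median of -0.13, where 47.4% of all genes were below 0. Of the 17, 0 passed in females and 8 had an unadjusted p under 0.05, beside 8.32% of all probe sets. In males 11 were above 0, with a median of 0.004. The mean of this list was 10.59 to 10.86 in females and 10.08 to 10.53 in males. Over all groups, 7 of the 11 cortical markers thus rose with Slc17a7 and Agt fell with it, though Agt did not pass in females alone. Slc1a2 had a slope above 0 in males only, and its rise rested on the 4 arrays below 7 in Slc17a7. The part of the cortical markers in these slopes was not tested. In bulk tissue, fewer cells of a type and less RNA per cell cannot be told apart.

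Of 38 other astrocyte genes, 37 were measured, 27 with slopes below 0, beside 49.7% of all genes. Of the 37, 9 fell and 1 rose with Slc17a7, beside 1.6% and 1.55% of all probe sets. Itih3, which encodes a protein that binds the matrix polymer hyaluronan, had a slope of -0.29 (SE 0.04, limma adjusted p = 5.94e-05), a fitted change of -1.63 log2 units over the male span. Slc6a11, which encodes the astrocytic GABA transporter GAT-3, had -0.17 (SE 0.02, limma adjusted p = 8.03e-05). Kcnj10, the potassium channel Kir4.1, had -0.08 (SE 0.02, limma adjusted p = 0.00181), and Ndrg2, an abundant astrocyte protein gene, -0.06 (SE 0.01, limma adjusted p = 0.00447). The gene that rose was Gldc, glycine decarboxylase, with a slope of 0.06 (SE 0.02, limma adjusted p = 0.0463), named after its value was seen. In 18 of the 23 fits that left out 1 array no gene of the list rose, nor did any with array weights, with the mean of the cortical list in place of Slc17a7, without the 2 mice farthest in Slc17a7 or without the 4 males below 7, and in males alone the slope of Gldc was 0.07 (SE 0.02, limma adjusted p = 0.0616). Leaving out 1 array gave 5 to 9 genes that fell, with 5 without male control 2 and 6 without male control 6. Without the 4 males below 7, 1 fell. With replicate number as a block in the model, 1 fell and 0 rose, and in males alone 2 fell and 0 rose. In females alone 0 of the 37 passed by limma and 0 had an unadjusted p under 0.05, with slopes of -0.18 for Itih3 (SE 0.12) and -0.04 for Slc6a11 (SE 0.07).

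**Figure D3:**
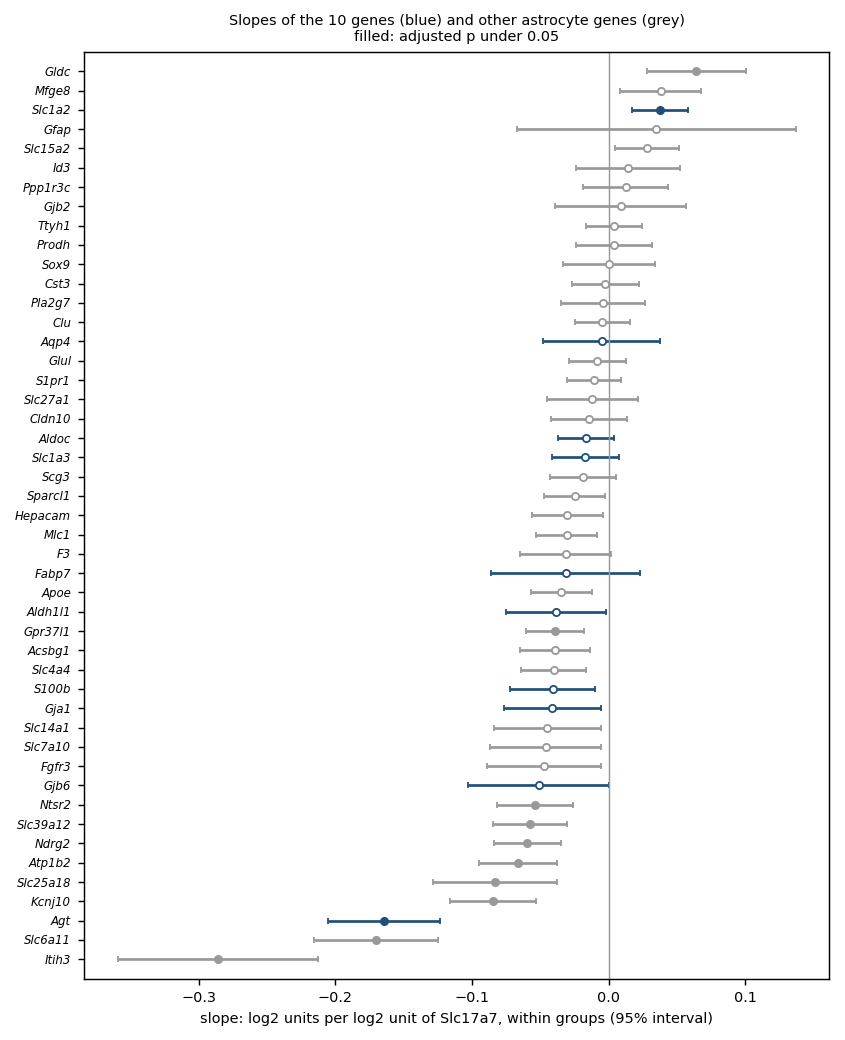
Slope on Slc17a7 within groups (x axis, log2 units per log2 unit, with 95% confidence intervals) for the 10 genes (blue) and 37 other astrocyte genes (grey), in order of slope; filled points passed an adjusted p of 0.05. Itih3 at -0.29, Slc6a11 at -0.17 and Agt at -0.16 are farthest below 0, and Slc1a2 and Gldc are the filled points above 0.

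Among the lists closest to the functions of the 10 genes, few members moved. Of 7 measured partners of aquaporin-4 at endfeet and in potassium uptake, 1 fell, beside 1.6% of all probe sets. It was Kcnj10, which is also in the list above. Of 14 tested genes of the glutamate and glutamine cycle 0 passed by limma and 4 had an unadjusted p under 0.05, which 13.9% of all probe sets had in this slope. The smallest belonged to Slc38a1, a glutamine transporter gene, with a slope of -0.04 (SE 0.01, unadjusted p = 0.0029, adjusted p = 0.0734), and Glud1, glutamate dehydrogenase, with -0.05 (SE 0.02, unadjusted p = 0.00596, adjusted p = 0.116). In males alone 1 of the 14 passed, Slc38a1, at -0.05 (SE 0.01, limma adjusted p = 0.0235), beside 2.64% of probe sets. In females 0 passed and 10 of the 14 were above 0, Slc38a1 at 0.04 (SE 0.04), where 47.4% of all genes were below 0. Of 11 measured connexin and pannexin genes, Gja1 and Gjb6 included, 0 passed by limma and 2 had such a p, near the share of all probe sets: Gja1, given above, and Gjc3, an oligodendrocyte connexin gene, with a slope of -0.06 (SE 0.02, unadjusted p = 0.00539, adjusted p = 0.109).

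Deviations from the group mean were then correlated between the genes over the 23 mice, for all 45 pairs, with permutation p values from 100000 resamples within groups, two-sided and adjusted over the 45. Of the pairs, 32 had r above 0, and the median r was 0.36. An adjusted p of Pearson's r under 0.05 was reached by 15, of which 13 were positive. Pairs of other genes were not taken as a reference, so these counts do not show closer variation here than among other genes. By Spearman's rho 1 of the 45 pairs had an adjusted p under 0.05. That pair, which was also the closest by r, was the glutamate transporter gene Slc1a3 and the connexin gene Gja1, with r = 0.85 (permutation p = 1e-05, the smallest these resamples can give, adjusted p = 0.00045) and Spearman's rho = 0.81 (permutation p = 1e-04, adjusted p = 0.0045). Without the 2 mice farthest from the median of Slc1a3, r was 0.77. It was 0.91 in females and 0.89 in males. Of all genes, Gja1 ranked 2 by its r to Slc1a3. In the other positive pairs with an adjusted p under 0.05 such ranks were lower, down to 597 for Gjb6 by its r to Gja1. Slc1a3 was at 10.67, 10.59, 10.77, 10.80, 10.72 and 10.85 in male controls 1 to 6. Slc1a3 and Gja1 were both lowest in mouse 2 and highest in mouse 6 of that group.

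Aqp4 varied with Slc1a3 (r = 0.67, permutation p = 0.00497, adjusted p = 0.032), with Spearman's rho = 0.60 (permutation p = 0.0108, adjusted p = 0.108). It varied with Fabp7 as well (r = 0.64, permutation p = 0.00219, adjusted p = 0.032), with rho = 0.53 (permutation p = 0.0144, adjusted p = 0.108). Slc1a2 had r below 0 to all 9 others in males, and r above 0 to 6 of the 9 in females. Over all 23 mice its r to Agt was -0.74 (permutation p = 0.00184, adjusted p = 0.032), with rho = -0.66 (permutation p = 0.00708, adjusted p = 0.108) and r = -0.66 without the 2 mice farthest from the median of Slc1a2. In females that r was -0.36 and in males -0.81. Slc1a2 and S100b had r = -0.51 (permutation p = 0.0139, adjusted p = 0.0447) and rho = -0.48 (permutation p = 0.022, adjusted p = 0.126), with 0.05 in females and -0.84 in males. S100b and Agt had r = 0.51 (permutation p = 0.0136, adjusted p = 0.0447) and rho = 0.40 (permutation p = 0.0609, adjusted p = 0.161), with -0.12 in females and 0.90 in males. These last 2 relations did not hold within the female arrays, and whether the array sets differ in them was not tested. Agt and Slc1a2 also moved with Slc17a7 in males, and the part of Slc17a7 in these pairs was not tested. Not all of the 15 pairs are described here. Among those left out, S100b and Gjb6 had r = 0.62 (permutation p = 0.00322, adjusted p = 0.032), with 0.49 in females and 0.75 in males. Their rho was 0.57 (permutation p = 0.00829, adjusted p = 0.108).

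**Figure D4:**
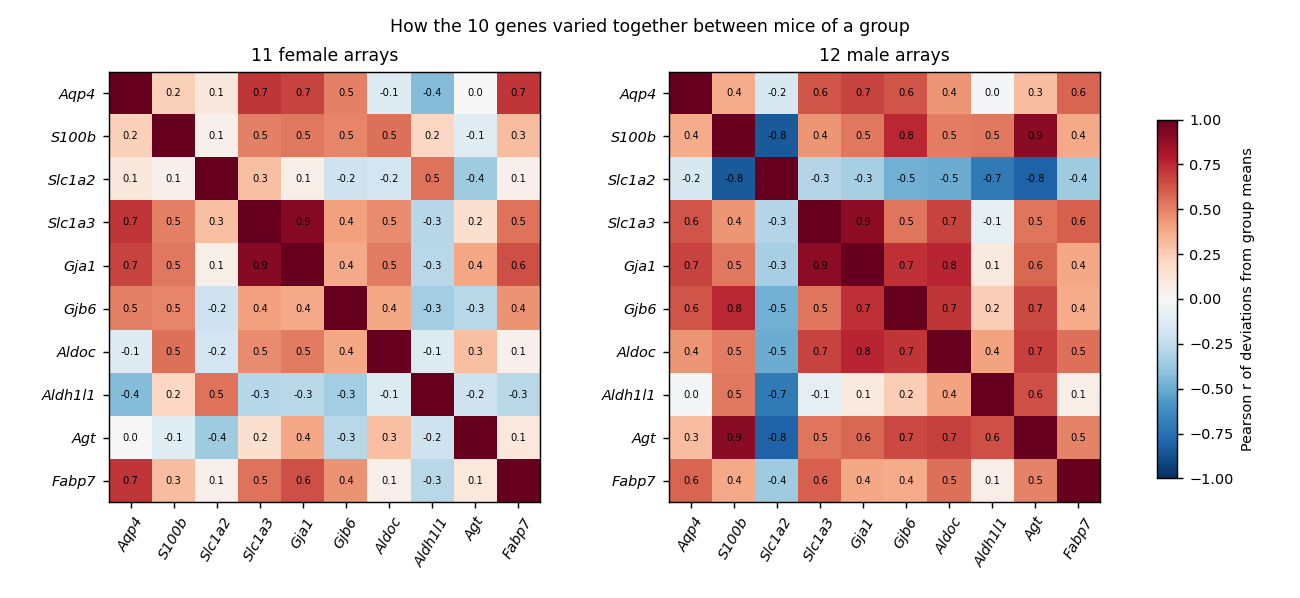
Pearson's r between the deviations of each pair of the 10 genes from their group means, in the 11 female (left) and 12 male (right) arrays, coloured from -1 to 1 and printed to 1 decimal. Slc1a3 and Gja1 are at 0.9 in both panels, whereas the row of Slc1a2 is mostly blue in males, with -0.8 to Agt and -0.8 to S100b.

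The mean of the 10 genes was set 0.18 above its group mean in male control 6, where 9 of the 10 were above their group means, and 0.14 above in female knockdown 4, with 8 of 10. It was 0.16 below in male control 2, where 1 of 10 was above. The genes outside the 10 whose deviations were most like this mean over the 23 mice were Ddo, D-aspartate oxidase, with Pearson's r = 0.89, Suclg2, a subunit of succinyl-CoA ligase, with 0.88, Lgals8, a galectin, with 0.88, Gpc3, a glypican, with 0.87, and Metap2, a methionine aminopeptidase, with 0.87. They were selected for this likeness, so no test is given. The r of Ddo was 0.81 in females and 0.92 in males. Of the 10 themselves, Gja1 was nearest to the mean that includes it, at 0.83, Aldh1l1 was at 0.21 and Slc1a2 at -0.50, with 0.13 in females and -0.66 in males.

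The labelled groups were compared within each array set. In females, males, the average of both and the difference between them, 0 of the 10 genes and 0 of the 41345 probe sets passed (limma adjusted p under 0.05, a background of 0%). At an unadjusted p under 0.05 the 10 genes gave 1 in females, 0 in males, 1 in the average and 0 in the difference. Over all probe sets, 5.86% had such a p in females, 4.71% in males, 4.71% in the average and 5.70% in the difference. The median difference, knockdown minus control, over the 10 was -0.01 in females and -0.01 in males, beside 0.00 over all genes in both.

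Fabp7, the fatty acid carrier, had the largest average difference. In female controls 1 to 5 it was at a log2 level of 10.19, 10.22, 10.04, 10.10 and 10.07, and in female knockdown mice 1 to 6 at 10.16, 10.07, 10.16, 10.73, 10.40 and 10.11. In male controls 1 to 6 it was at 9.97, 10.03, 10.27, 10.19, 10.27 and 10.39, and in male knockdown mice 1 to 6 at 10.78, 10.41, 10.18, 10.40, 10.35 and 10.22. The ranges overlapped in both sexes, and 9 of 12 knockdown mice, 4 female and 5 male, were above the control mean of their sex. The difference was 0.15 in females (SE 0.11, interval -0.08 to 0.38, limma adjusted p = 0.903) and 0.20 in males (SE 0.11, interval -0.02 to 0.42, limma adjusted p = 0.996). Averaged over both sexes it was 0.18 (SE 0.08, interval 0.02 to 0.33, unadjusted p = 0.032, limma adjusted p = 0.98), and so did not pass. The female value was 0.06 without knockdown mouse 4, and the male value was 0.13 without knockdown mouse 1 and 0.36 without the 4 males below 7 in Slc17a7 (unadjusted p = 0.0146, limma adjusted p = 0.619).

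S100b, the calcium-binding protein gene, was at 8.20, 8.46, 8.25, 8.38 and 8.38 in female controls 1 to 5 and at 8.35, 8.07, 8.21, 8.29, 8.05 and 8.01 in female knockdown mice 1 to 6. Of the latter, 1 of 6 was above the control mean, and the ranges overlapped. The difference was -0.17 in females (SE 0.07, interval -0.32 to -0.02, unadjusted p = 0.0269, limma adjusted p = 0.846). In males it was 0.01 (SE 0.07, interval -0.13 to 0.16), with levels of 8.32 to 8.65 in controls and 8.39 to 8.69 in knockdown mice. The male minus female difference of 0.18 (SE 0.10) did not pass (unadjusted p = 0.0778, limma adjusted p = 0.876).

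For the other 8 genes the intervals included 0 in both sexes. The connexin gene Gjb6 differed by -0.08 in females (SE 0.11) and -0.16 in males (SE 0.11), and Gja1 by 0.03 (SE 0.08) and -0.02 (SE 0.08). Aldoc differed by 0.01 in females (interval -0.08 to 0.10) and 0.02 in males (interval -0.06 to 0.11), the narrowest intervals of the 10. Of the glutamate transporter genes, Slc1a2 differed by -0.02 in females (interval -0.13 to 0.09) and 0.00 in males (interval -0.10 to 0.11), and Slc1a3 by -0.01 (interval -0.12 to 0.09) and 0.03 (interval -0.07 to 0.14). Aldh1l1 differed by -0.06 in females and -0.09 in males (SE 0.08 each), and Aqp4 by -0.02 and -0.05 (SE 0.08 each). Agt differed by 0.01 in females (SE 0.17) and by -0.18 in males (SE 0.16, interval -0.51 to 0.15). The male value for Agt was 0.01 with Slc17a7 as a covariate and 0.01 without the 4 males below 7, 3 of which were controls.

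**Figure D5:**
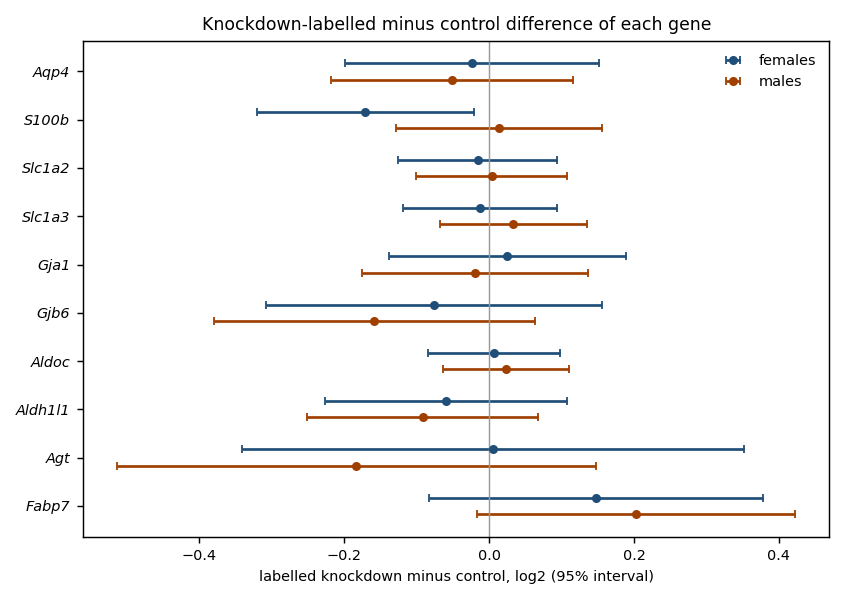
Difference in log2 level, arrays labelled knockdown minus control (x axis, with 95% confidence intervals), of the 10 genes in females and males. The interval of S100b in females, -0.32 to -0.02, excludes 0 before adjustment; none of the 10 passed the test after adjustment over all probe sets.

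Among the 37 other astrocyte genes, 11 were higher and 26 lower in knockdown females, and 24 higher and 13 lower in knockdown males. Of all genes, 49.8% were lower in knockdown females and 47.8% in knockdown males. By limma 0 of the 37 passed in either sex or in the average. An unadjusted p under 0.05 was reached by 1 in females, 2 in males and 2 in the average, beside 5.86%, 4.71% and 4.71% of all probe sets. The smallest p of the average belonged to Slc15a2, a peptide transporter gene, with a difference of 0.11 (SE 0.04, unadjusted p = 0.00504, adjusted p = 0.98), and to Sparcl1, which encodes the synaptogenic protein hevin, with -0.07 (SE 0.03, unadjusted p = 0.0458, adjusted p = 0.98). For Slc15a2, 10 of 12 knockdown mice were above the control mean of their sex, and for Sparcl1 1 of 12. The male minus female difference was 0.16 for Slc15a2 (SE 0.07, unadjusted p = 0.0419, limma adjusted p = 0.872) and -0.003 for Sparcl1 (SE 0.07). Of the endfoot partners, Dag1, dystroglycan, differed by 0.07 (SE 0.04) and Hepacam by 0.05 (SE 0.04) in the average, and of the glutamate cycle genes Slc1a6, a neuronal glutamate transporter, by -0.12 (SE 0.06) and Got2, an aspartate aminotransferase, by -0.05 (SE 0.03). Of the connexin and pannexin genes, the smallest p belonged to Gjd2, at -0.10 (SE 0.05), and Panx2, at -0.08 (SE 0.04). In the average, 0 genes of these 3 lists passed by limma, and 0 had an unadjusted p under 0.05. In females such a p was reached by 3 of the 15 measured glutamate cycle genes, of which 12 were lower and 3 higher in knockdown mice, beside the 5.86% of all probe sets. In males it was reached by 0 of the 15.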

How the data were processed

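Arrays from 23 mice were used. The authors deposited 1 table of log2 intensities for 41345 probe sets. Per the submitters' processing notes they used Transcriptome Analysis Console. Its version, the normalization and the genome build were not given in the sources used. Total RNA input was 150 ng, per the labels' protocols. The array's annotation gave a single symbol to 23521 probe sets, no symbol to 16010 and several to 1814. A gene was read from the probe set with 1 symbol and the highest mean over the arrays. All arrays entered 1 model with 4 group means in limma 3.58.1 (R 4.3.3; 19 residual degrees of freedom, 18 with a slope and 17 with a slope per set), two-sided, with Benjamini-Hochberg adjustment over all probe sets and a threshold of 0.05. The scripts were tested on simulated data. The limma p-values set each difference or slope against the residual spread between mice of a group, moderated over all probe sets. With 1 array per mouse, that spread cannot be split into biological and technical parts. The number of arrays limits the precision.

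The 10 genes, the other lists and the tests were chosen with earlier results of these data known. All 10 genes are named. Of the other lists, the members past the threshold with the 4 smallest p are named, or the 2 with the smallest p where none passed, along with the 5 genes most like the mean of the 10. In the main fits, replicate numbers were not used to pair the mice. The alternatives were quantile normalization within each array set, array weights, a trended robust prior, fewer probe sets, each array set alone and each array left out. Others were a replicate block, Slc17a7 as a covariate, the cortical list without Slc17a7 as the measure, and fits without the 2 mice farthest in Slc17a7.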

Additional observations from a re-analysis of the deposited data

How the results depend on the processing

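The call of Agt in the slope on Slc17a7 held under every alternative fitted to all 4 groups, whereas the Slc1a2 call did not, and 0 of the 10 genes passed in a knockdown contrast under any of them. In the slope over all groups, 1 of the 10 genes passed with array weights, with the replicate block, with the mean of the cortical list as the measure (median slope of the 10 genes -0.12, per unit of that mean), without the 2 mice farthest in Slc17a7 and, in an alternative chosen after seeing the data, without the 4 males with Slc17a7 below 7. Probe sets past the threshold numbered 152 with the block and 841 without the 4 males. In males alone, 93 probe sets and 1 of the 10 genes passed with the block, 506 and 1 with that set fitted alone, 653 and 1 without the 2 farthest mice, 196 and 0 without the 4 males, and 1 of the 10 with the cortical measure (median -0.13). In females alone the probe sets numbered 412 with array weights, 314 among probe sets above the median level, 263 among those with 1 symbol, 321 with the cortical measure, 282 without the 4 males and 0 with the block. For the difference of the slopes they numbered 36, 9, 10 and 2 in the first 4 of these, 0 without the 4 males and 0 with the block, with medians of the 10 genes of -0.11 (cortical measure) and -0.095 (without the 4 males). Array weights gave 1 probe set in the difference of the knockdown effects. The causes of these shifts were not tested.

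Leaving out 1 array gave 0 to 1 probe sets in the female contrast, 0 to 1 in the male contrast and 0 to 1 in their difference. In the slope over all groups it gave 821 (without male control 2) to 1437 probe sets and 1 to 2 of the 10 genes. In females it gave 12 (without female control 1) to 229 probe sets. In males it gave 594 to 1208 probe sets and 1 to 2 of the 10 genes. In the difference of the slopes it gave 1 to 2 probe sets. Of 720 values of single genes under the other settings, 41 changed sign, and 0 of these were called. Since each of the 10 genes has 1 probe set, averaging the probe sets of a gene gave no other value. The sample titles number the replicates without stating a pairing of mice across groups. Of 11 same-numbered pairs, 2 correlated above 0.1. Pairs of unlike number were not taken as a reference, so these values do not settle whether the numbers pair mice. With the replicate block the slope of Agt was -0.20 (limma adjusted p = 0.0104) and that of Slc1a2 0.03 (limma adjusted p = 0.736).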

Other observations

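Genes of other glia were read in the same slope on Slc17a7. Of 8 oligodendrocyte precursor genes, 2 fell, beside 1.6% of all probe sets. They were the lineage transcription factor gene Olig2, with a slope of -0.07 (SE 0.02, limma adjusted p = 0.0202), and the growth factor receptor gene Pdgfra, with -0.05 (SE 0.01, limma adjusted p = 0.0465). In males alone Olig2 passed and Pdgfra did not (limma adjusted p = 0.0657). In females 6 of the 8 had slopes above 0, with a median of 0.01, and 0 passed or had an unadjusted p under 0.05. All 11 measured genes of myelinating oligodendrocytes had slopes below 0 in males and over all groups, with a median of -0.04, but 0 passed by limma. Of all genes, 50.0% were below 0 in males and 49.7% over all groups. In females 4 of the 11 were above 0, and 0 had an unadjusted p under 0.05. Over all groups 4 had such a p, beside 13.9% of all probe sets, and the smallest p values belonged to Mog, a myelin surface protein gene, at -0.06 (SE 0.02, unadjusted p = 0.0039, adjusted p = 0.0889), and Opalin, at -0.07 (SE 0.02, unadjusted p = 0.00561, adjusted p = 0.112). Of 13 reactive astrocyte genes, 12 had slopes above 0, where 49.7% of all genes were below 0. By limma 0 passed, and 2 had an unadjusted p under 0.05, near the share of all probe sets. These were Osmr, the oncostatin M receptor gene, at 0.04 (SE 0.02, unadjusted p = 0.0183, adjusted p = 0.217), and Cd44, a hyaluronan receptor gene, at -0.04 (SE 0.02, unadjusted p = 0.0219, adjusted p = 0.24). Averaged over both sexes, 14 of 17 clock genes had a positive difference, knockdown minus control, where 48.6% of all genes were lower. By limma 0 passed, and 3 had an unadjusted p under 0.05, beside 4.71% of all probe sets. Per1, a clock repressor gene, differed by 0.14 (SE 0.05, unadjusted p = 0.0124, adjusted p = 0.98) and was above the control mean in 12 of 12 knockdown mice. Rora, an activator that binds the same sites as REV-ERBα, differed by -0.09 (SE 0.04, unadjusted p = 0.0328, adjusted p = 0.98), with 0 of 12 above.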
